A study of Mus musculus with 6 samples.

Results

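The complement system was examined through 32 genes in the livers of male WT and CgA-KO mice. These genes encode complement components, regulators and receptors, were chosen by symbol from the 32212 rows of the gene count table, and were all found there. They were grouped by the cell type that is known as their main source in liver, with 7 genes of macrophages, 22 of hepatocytes and 3 of other or mixed source. All mice were of C57BL/6 background, had an age of 2 yr by the labels and ate a normal chow diet. WT mice carried an intact Chga gene, which encodes chromogranin A (CgA), and CgA-KO mice lacked CgA. Poly(A)-selected liver RNA of 3 mice per genotype was sequenced, with 1 library per mouse. The comparison asked which complement genes differed between old CgA-KO and old WT livers, a question next to the study's interest in Vsig4, a complement receptor of the liver.

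Complement is a cascade of plasma proteins that coats microbes and debris, attracts leukocytes and perforates membranes. It starts through antibody-bound C1q (classical pathway), through sugar-binding lectins (lectin pathway) or by a slow spontaneous turnover of C3 (alternative pathway), and all routes meet at the cleavage of C3 and end in a pore made of C5b to C9. Hepatocytes secrete most of the plasma components, while C1q, properdin and the receptors for the fragments C3a and C5a come from macrophages and other myeloid cells. Kupffer cells, the resident macrophages of the liver, take up C3-coated particles from portal blood.

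The libraries held between 10558616 (WT replicate 1) and 31087453 (WT replicate 2) counts. Levels are given in CPM, counts scaled to a common library size with TMM factors (trimmed mean of M values), as mean ± SD over 3 livers unless a single library is named. A total of 3 counts, taken as the lowest level that can be seen, stood for 0.0951 to 0.269 CPM. Chga itself had 0 counts in all 6 libraries, so it could not check the genotype labels. Replicate libraries differed beyond counting noise and each entered as its own sample. WT replicate 1 was the shallowest library and held the most Kupffer cell marker RNA of the WT livers. The genotypes were set against each other with the quasi-likelihood test of edgeR over the 13867 genes that passed a filter on low counts, with Benjamini-Hochberg adjustment, and a gene was called at an adjusted p under 0.05. With 3 livers per genotype, the smallest p of an exact permutation test is 0.1.

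Of the 32 complement genes, 31 passed the filter and 7 rose in CgA-KO livers, while 0 fell, by edgeR's quasi-likelihood test. Among all genes tested, 12.4% were called, 8.60% as higher and 3.84% as lower. The 7 genes that rose were all 7 of the macrophage group, C1qa, C1qb, C1qc, Fcna, Cfp, C3ar1 and C5ar1. None of the 22 hepatocyte genes was called, with 3 at an unadjusted p under 0.05, and DESeq2 called these 3 as lower. The median log2 fold change was 3.02 in the macrophage group and -0.15 in the hepatocyte group, beside -0.01 over all genes tested. Scaling by library size alone shifted the median of all genes to 0.26, and the hepatocyte median then turned to 0.12, so the sign of the latter depended on the scaling. Without CgA-KO replicate 1 the hepatocyte median was -0.01, and without CgA-KO replicate 2 it was -0.34. The genotypes did not overlap in 8 of the 31 genes in the higher direction and in 4 in the lower one, beside 19.0% and 14.6% of all genes tested (33.6% in either direction).

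**Figure D1:**
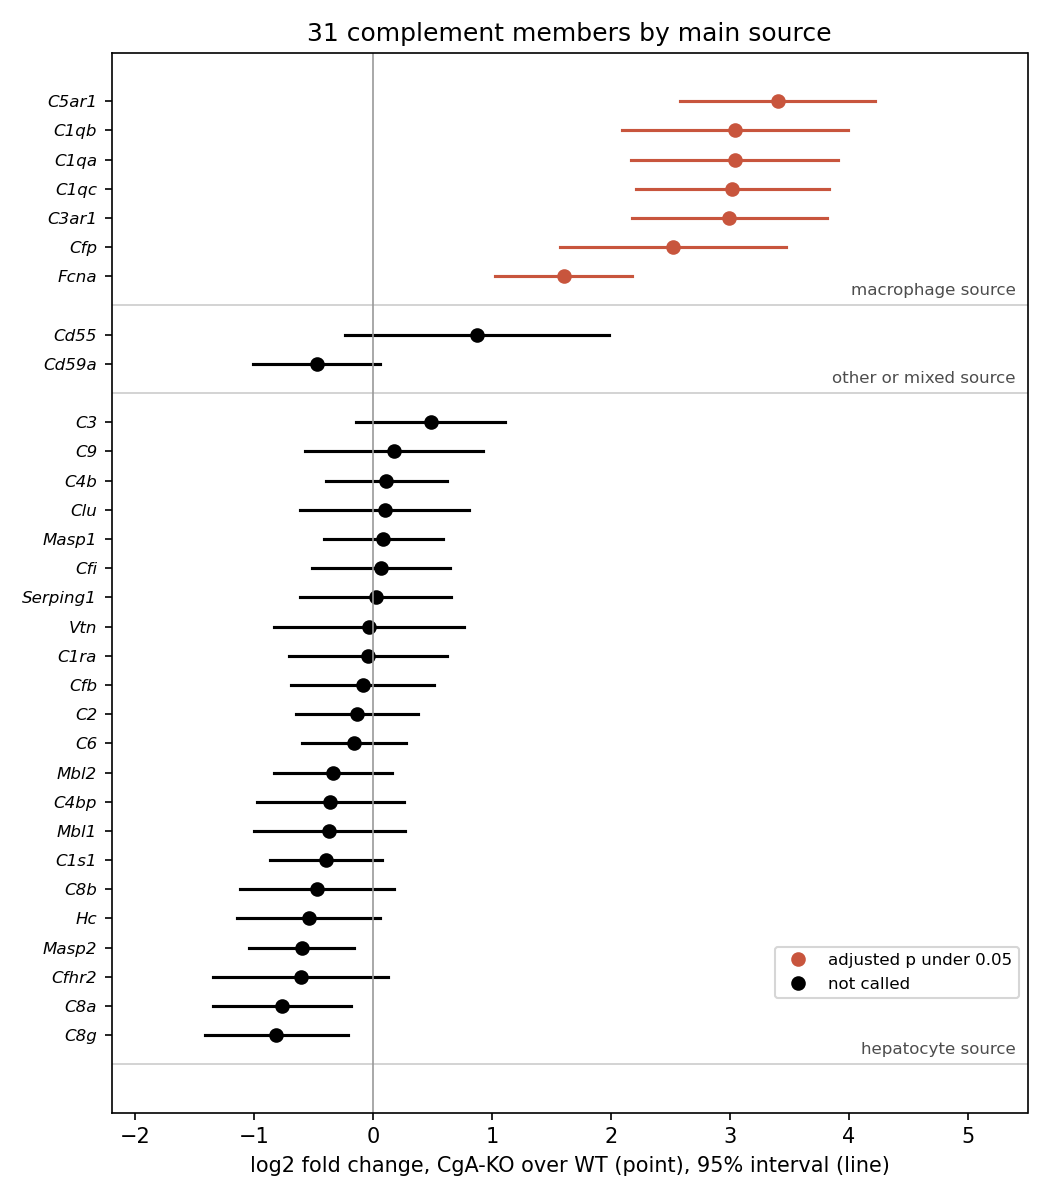
Log2 fold change of CgA-KO over WT (x axis) for the 31 complement genes tested, grouped by main source; points are edgeR estimates from 3 livers per genotype and lines are 95% intervals. The 7 macrophage genes lie between 1.60 and 3.40, and the 22 hepatocyte genes lie between -0.82 and 0.48.

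C1q, the recognition molecule of the classical pathway, is built from the chains A, B and C, and all 3 chain genes rose about equally in CgA-KO livers. They lie side by side within 18.7 kb of chromosome 4 on the minus strand, C1qb from 136880129 to 136886187, C1qc from 136889804 to 136893065 and C1qa from 136895917 to 136898803 of GRCm38. C1qa was at 31.2, 19.8 and 10.1 CPM in WT replicates 1, 2 and 3, and at 140, 192 and 167 CPM in CgA-KO replicates 1, 2 and 3. C1qb was at 39.0, 17.1 and 11.8 CPM in the same order of WT livers, and at 162, 209 and 182 CPM in CgA-KO livers. C1qc was at 36.5, 21.6 and 12.9 CPM in WT and at 184, 208 and 180 CPM in CgA-KO livers. In whole liver RNA, more cells of a type and more RNA per cell cannot be told apart. Every CgA-KO liver lay above every WT liver for each chain, and WT replicate 1 was the highest WT liver for all of them. The fold increases were 8.22 for C1qa (95% interval 4.49 to 15.0, edgeR adjusted p = 0.00434), 8.23 for C1qb (4.26 to 15.9, adjusted p = 0.00513) and 8.10 for C1qc (4.62 to 14.2, adjusted p = 0.00355). When any 1 library was dropped, C1qa kept a log2 fold change of 2.70 to 3.52 and all chains kept the call.

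The balance between the C1q chains was alike in all livers. Per kb of annotated exon, C1qa took from 35.4% to 41.4% of the summed C1q level, C1qb from 34.2% to 42.3% and C1qc from 22.2% to 25.1% over the 6 libraries. The highest share of C1qa and the lowest of C1qb were both found in WT replicate 2. The transcripts of C1qa and C1qb share 0 stretches of 31 bases, and the same holds for C1qb and C1qc, so reads could be told apart between these chains.

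The bases before the start sites of 3 macrophage genes that rose are shown because they hold GAGGAA, the core that PU.1, a factor of myeloid cells, is known to bind. They come from RefSeq on GRCm38.p6, are written 5′ to 3′ on the strand of the gene, and stop where the first annotated exon of RefSeq or GENCODE begins. Capitals mark GAGGAA on either strand, and neighbouring matches can touch.
C1qb, chr4:136886201-136886450, minus strand: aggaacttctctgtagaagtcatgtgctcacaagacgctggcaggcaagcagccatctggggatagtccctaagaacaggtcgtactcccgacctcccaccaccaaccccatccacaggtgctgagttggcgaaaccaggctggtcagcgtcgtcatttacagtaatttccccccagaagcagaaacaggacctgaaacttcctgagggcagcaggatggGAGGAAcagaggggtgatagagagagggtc
C1qc, chr4:136893066-136893164, minus strand: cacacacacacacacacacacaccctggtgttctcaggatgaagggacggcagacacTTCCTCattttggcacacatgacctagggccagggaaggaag
Fcna, chr2:25628031-25628224, minus strand: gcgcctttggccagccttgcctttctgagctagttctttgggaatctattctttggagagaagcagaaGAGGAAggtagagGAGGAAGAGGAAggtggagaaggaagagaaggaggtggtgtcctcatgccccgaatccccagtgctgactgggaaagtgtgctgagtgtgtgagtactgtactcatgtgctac
The C1qb match began 30 bases before the RefSeq start site, the C1qc match lay on the opposite strand 193 bases before it, and Fcna had 3 matches, of which the nearest began 163 bases before it. An entry was found for 24 of the 32 genes, and none for C1qa. In the 250 bases before the start, GAGGAA was present in 3 of 6 macrophage genes and 0 of 15 hepatocyte genes, beside 23.3% of all 32851 promoters. The letters GTTAAT, the core of sites for the hepatocyte factor HNF1, were present in 7 of 15 hepatocyte genes and 1 of 6 macrophage genes, beside 6.43% of all promoters. TTNNGNAA, a form of the C/EBP site, was present in 8 of 15 and 3 of 6 of them (36.8% of all), TTCNNNGAA, a STAT site, in 2 of 15 and 0 of 6 (7.02%), and the interferon-stimulated response element in 0 of 15 and 0 of 6 (2.98%). Both strands were searched for each. A match describes the letters of the window only.

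The receptors for the small complement fragments rose as well, from low levels. C3ar1, on chromosome 6 from 122847138 to 122856161, encodes the receptor of C3a. It was at 3.22, 2.04 and 1.61 CPM in WT replicates 1, 2 and 3, and at 25.7, 13.4 and 14.4 CPM in CgA-KO livers, a 7.96-fold increase (95% interval 4.50 to 14.1, edgeR adjusted p = 0.0039). C5ar1, on chromosome 7 from 16246743 to 16259540, encodes the receptor of C5a, which draws neutrophils and monocytes. It rested on 8, 18 and 13 counts in WT livers and on 201, 224 and 113 counts in CgA-KO livers, or 0.717, 0.766 and 0.551 CPM against 9.33, 7.10 and 5.07 CPM. Its increase of 10.6-fold (5.97 to 18.6, edgeR adjusted p = 0.00296) was the largest of the 31 genes tested, and its interval overlapped those of C3ar1 and of the C1q chains. CgA-KO replicate 1 was the highest liver for both receptors.

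Cfp and Fcna, the other genes of the macrophage group, also rose. Cfp, on the X chromosome from 20925454 to 20931555, encodes properdin, which stabilizes the C3 convertase of the alternative pathway. It was at 31.98, 9.49 and 13.2 CPM in WT livers and at 99.3, 88.9 and 122 CPM in CgA-KO livers, a 5.74-fold increase (95% interval 2.97 to 11.1, edgeR adjusted p = 0.00855). Without WT replicate 3 the log2 fold change of Cfp was 2.33 and the call was lost (edgeR adjusted p = 0.0628). Fcna, on chromosome 2 from 25624666 to 25628030, encodes ficolin A, a lectin of liver and spleen macrophages that binds acetylated sugars. It was at 35.4, 32.9 and 22.8 CPM in WT livers and at 75.8, 120 and 80.1 CPM in CgA-KO livers. Its 3.03-fold increase (2.03 to 4.52, edgeR adjusted p = 0.00774) was the smallest of the macrophage group. No CgA-KO liver overlapped a WT liver for either gene.

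**Figure D2:**
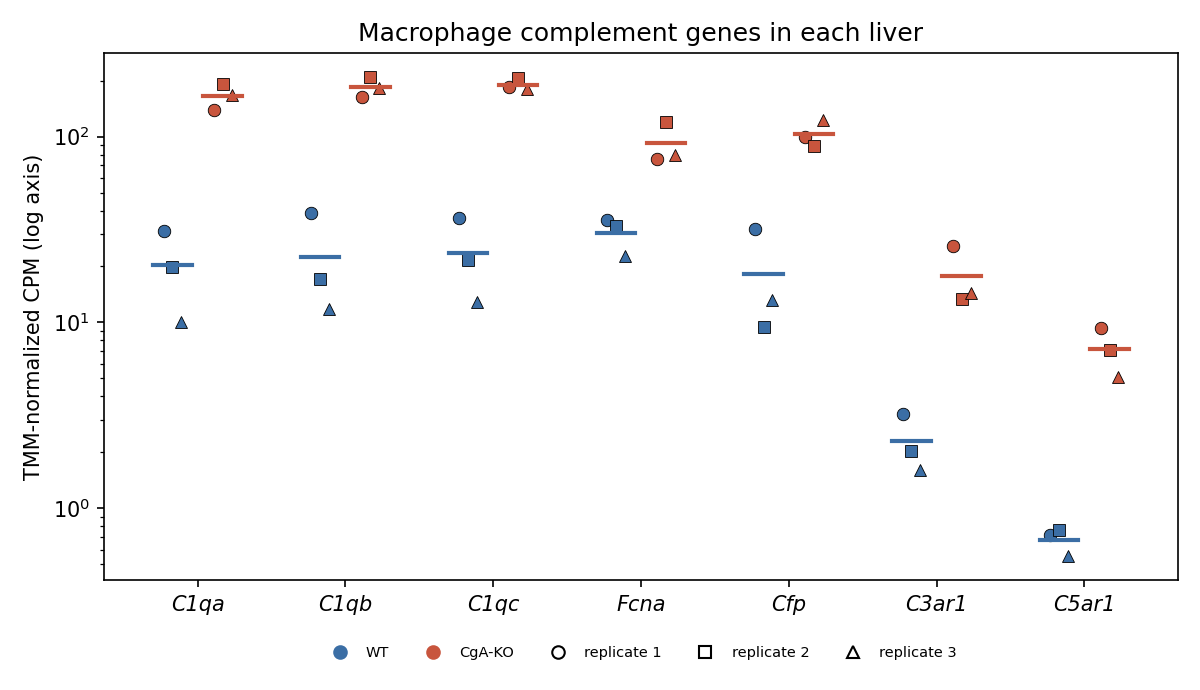
TMM-normalized CPM (log axis) of the 7 macrophage complement genes in each of 3 WT and 3 CgA-KO livers; symbols mark the replicate and bars the mean. In every gene the 3 CgA-KO livers lie above the 3 WT livers, and WT replicate 1 is the highest WT liver for 6 of the 7, C5ar1 being the exception.

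Markers of several cell types moved with these genes. Of 9 Kupffer cell markers, 8 rose in CgA-KO livers by edgeR's quasi-likelihood test (Marco was not called), none was at 0 in any genotype, and their summed level ran from 102 to 257 CPM in WT and from 968 to 1641 CPM in CgA-KO livers. Clec4f, a lectin particular to Kupffer cells, was at 96.1, 29.1 and 30.6 CPM in WT and at 629, 289 and 291 CPM in CgA-KO livers (log2 fold change 2.96, edgeR adjusted p = 0.0122), and it lost the call without WT replicate 2 (adjusted p = 0.0792) or WT replicate 3 (adjusted p = 0.0756). Adgre1, which encodes a macrophage surface protein, rose as well (log2 fold change 3.61, edgeR adjusted p = 0.00322). Of 8 monocyte and neutrophil markers, 6 passed the filter and 4 rose, with sums of 44.3 to 130 CPM in WT and 337 to 566 CPM in CgA-KO livers, and Mpo was at 0 in all WT libraries. Of 7 lymphocyte markers 3 rose (4.38 to 45.7 CPM against 36.4 to 82.5 CPM), and so did 3 of 6 stellate cell markers (148 to 207 CPM against 264 to 426 CPM). Of 5 endothelial markers 1 rose and 1 fell, with sums of 78.8 to 94.0 and 88.8 to 119 CPM. None of 4 cholangiocyte markers was called (5.80 to 6.85 against 7.08 to 12.2 CPM), nor was any of 7 hepatocyte markers, whose sums ran from 54496 to 93304 CPM in WT and from 45808 to 81352 CPM in CgA-KO livers. The median log2 fold change was 2.96 for the Kupffer cell list, 3.68 for monocytes and neutrophils, 3.14 for lymphocytes, 0.84 for stellate cells, 0.83 for endothelium, 0.49 for cholangiocytes and -0.20 for hepatocytes. The part of these cell types in the increases was not tested.

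Set against the summed Kupffer cell markers, C1q did not separate the genotypes, whereas Fcna did. Against Clec4f alone, Fcna overlapped between the genotypes as well. The summed level of the 3 C1q chains divided by that of the 9 markers was 0.415, 0.563 and 0.340 in WT replicates 1, 2 and 3, and 0.296, 0.426 and 0.546 in CgA-KO livers. These ranges overlapped, with a difference in mean log2 ratio of -0.07 (exact two-sided permutation test, p = 0.8), whose sign changed with the libraries used. The ratio of Fcna to the markers was 0.138, 0.317 and 0.223 in WT livers and 0.0462, 0.0839 and 0.0827 in CgA-KO livers, so every CgA-KO liver lay below every WT liver. The mean log2 ratio differed by -1.64 (exact permutation test, p = 0.1, the smallest that the design allows). Divided by Clec4f alone, Fcna gave 0.368, 1.13 and 0.744 in WT livers and 0.120, 0.414 and 0.276 in CgA-KO livers. There CgA-KO replicate 2 lay above WT replicate 1. Over the 7 macrophage genes taken one by one, 6 ratios overlapped between the genotypes, and the lowest adjusted p was 0.7 (exact permutation tests, Benjamini-Hochberg over 7). In this design no adjusted p of these tests could fall below 0.1, so none of the ratios could have been called. The ratios were looked at after the increases were known.

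**Figure D3:**
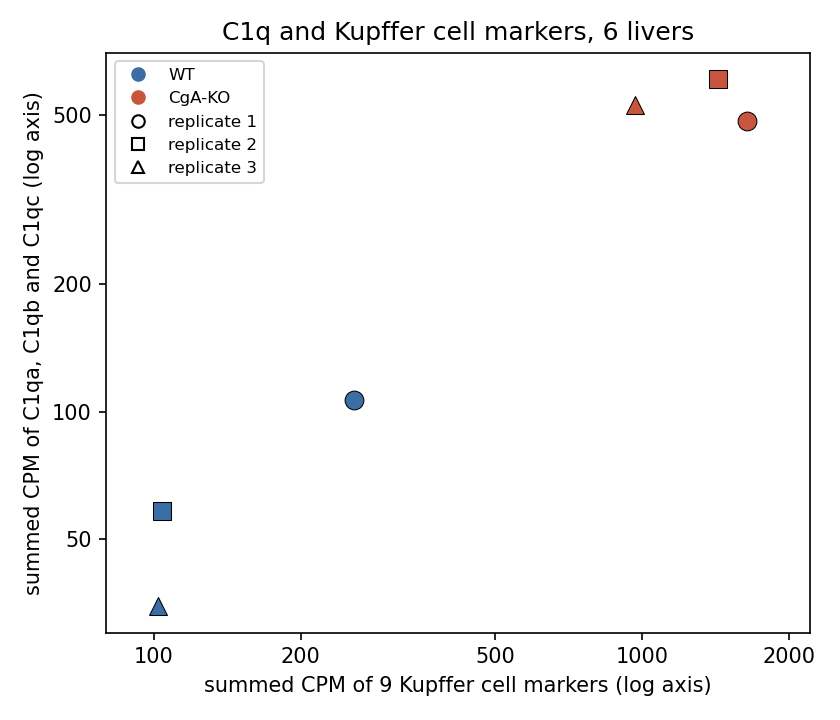
Summed CPM of C1qa, C1qb and C1qc (y axis, log) against the summed CPM of 9 Kupffer cell markers (x axis, log), 1 point per liver, with symbols for replicates. WT livers lie at 34.8 to 107 CPM of C1q and CgA-KO livers at 486 to 608 CPM, and WT replicate 1 is the WT liver with the most of both.

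Among the hepatocyte genes, C3, the protein on which all pathways converge, had the highest level per length. On chromosome 17 from 57203970 to 57228136, it stood at 930 CPM per kb of exon in WT livers, followed by Vtn (vitronectin, an inhibitor of the terminal pore) at 805 CPM per kb, while C5ar1 was lowest of the 31 complement genes tested at 0.264 CPM per kb. C3 was at 4157, 5340.2 and 4850.1 CPM in WT replicates 1, 2 and 3 and at 5907, 7369 and 6745 CPM in CgA-KO replicates 1, 2 and 3. All CgA-KO livers lay above all WT livers, yet edgeR did not call the 1.395-fold difference (95% interval 0.905 to 2.15, adjusted p = 0.286). It was called with library size alone (log2 fold change 0.76, edgeR adjusted p = 0.0465). Cfb, which encodes factor B, the partner of C3 in the convertase of the alternative pathway, was at 820 ± 129 CPM in WT against 771 ± 186 CPM in CgA-KO livers, with overlap.

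The remaining components of the classical pathway overlapped between the genotypes or were not called. C4b, the main C4 gene and source of the classical C3 convertase, was at 999.6, 1054 and 994.7 CPM in WT and at 1026, 1226 and 1034 CPM in CgA-KO livers, a 1.08-fold difference (95% interval 0.757 to 1.53, edgeR adjusted p = 0.794). C1ra and C1s1 encode the proteases that C1q carries. C1ra was at 255 ± 41.9 and 247 ± 96.4 CPM, and C1s1 was at 491, 424 and 501 CPM in WT against 339, 396 and 338 CPM in CgA-KO livers, without overlap and without a call (edgeR adjusted p = 0.242). C2, the other part of the convertase, was at 93.4 ± 9.58 and 84.9 ± 22.4 CPM.

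In the lectin pathway, Mbl1 and Mbl2 encode mannose-binding lectins, and Masp1 and Masp2 the proteases that travel with them. Masp2 was at 268, 214 and 238 CPM in WT livers and at 155, 169 and 150 CPM in CgA-KO livers. Each CgA-KO liver was below each WT liver, with a log2 fold change of -0.60 (95% interval -1.05 to -0.16, edgeR adjusted p = 0.0781) that DESeq2 called (adjusted p = 0.00692). With library size alone the log2 fold change of Masp2 was -0.35 (edgeR adjusted p = 0.338). Masp1, Mbl1 and Mbl2 overlapped between the genotypes, with Mbl2 at 220 ± 26.9 CPM in WT against 174 ± 31.1 CPM in CgA-KO livers.

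The terminal pathway builds the membrane attack complex, and 5 of its 6 genes had a log2 fold change below 0 without a call, of which C6 turned to 0.11 in 1 of 13 alternatives. C8a and C8g, which encode the α and γ chains of C8, had the lowest values. C8a was at 578, 655 and 701 CPM in WT livers and at 273, 467 and 394 CPM in CgA-KO livers (log2 fold change -0.77, 95% interval -1.35 to -0.19, edgeR adjusted p = 0.0842). C8g was at 254, 462 and 307 CPM against 174, 190 and 218 CPM (log2 fold change -0.82, interval -1.41 to -0.22, edgeR adjusted p = 0.0776). Both showed no overlap between genotypes. DESeq2 called both (adjusted p = 0.0140 and 0.0190), and edgeR called C8g without WT replicate 1 (adjusted p = 0.0387). Other alternatives weakened them. With library size alone the log2 fold change was -0.50 for both (edgeR adjusted p = 0.198 for C8a and 0.111 for C8g). That of C8a was -0.55 without CgA-KO replicate 1 (edgeR adjusted p = 0.265). That of C8g was -0.54 without WT replicate 2 (edgeR adjusted p = 0.162). C8b, for the β chain, was at 210 ± 39.9 and 151 ± 48.8 CPM with overlap.

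Hc, which encodes C5, was at 1122, 864 and 984 CPM in WT livers and at 556, 598 and 884 CPM in CgA-KO livers, where CgA-KO replicate 3 reached into the WT range (log2 fold change -0.54, edgeR adjusted p = 0.212). C9, the subunit that forms the ring of the pore, was at 215, 480 and 366 CPM in WT and at 316, 355 and 526 CPM in CgA-KO livers. It was the only terminal gene with a value above 0 (0.17, edgeR adjusted p = 0.774), and that value turned to -0.04 without WT replicate 1 and without CgA-KO replicate 3.

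**Figure D4:**
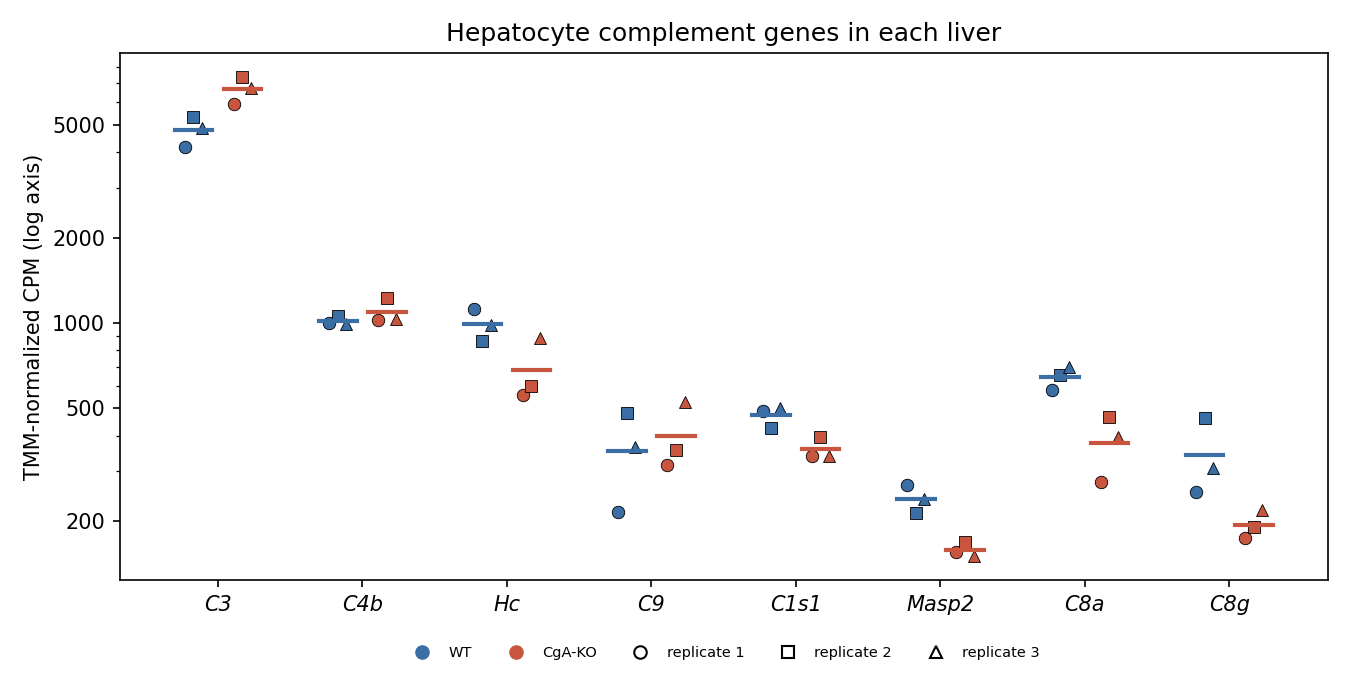
TMM-normalized CPM (log axis) of 8 hepatocyte complement genes in each of 3 WT and 3 CgA-KO livers; symbols mark the replicate and bars the mean. C3 lies higher and C1s1, Masp2, C8a and C8g lie lower in all CgA-KO livers, without a call by edgeR, and C4b, Hc and C9 overlap.

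Of the 8 regulators of complement, 0 were called by edgeR and 0 had an unadjusted p under 0.05, DESeq2 called none of them either, and all 8 overlapped between the genotypes. Serping1 encodes the C1 inhibitor and was at 562 ± 95.6 CPM in WT against 569 ± 179 CPM in CgA-KO livers. Cfi, the protease that cuts C3b and C4b, was at 454 ± 102 and 475 ± 90.6 CPM, and its cofactor C4bp was at 553 ± 133 and 431 ± 108 CPM. Clu and Vtn, which keep the terminal complex out of membranes, reached their highest levels in CgA-KO replicate 2, at 1458 and 2435 CPM. Cfhr2 was at 736 ± 235 and 482 ± 153 CPM.

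For the 14 hepatocyte genes without single statistics above, the log2 fold changes ran from -0.61 to 0.09, all 14 overlapped between the genotypes, and the lowest adjusted p was 0.251 by edgeR's test. In 14 of the 22 hepatocyte genes the 95% interval of the fold change stayed within 2-fold in either direction. In 7 it reached below a 2-fold lower level, and in 1, C3, above a 2-fold higher one, so a difference of that size lay within the interval. CgA-KO replicate 2 was the highest CgA-KO liver in 15 of the 22, and CgA-KO replicate 1 in 0. WT replicate 2 was the highest WT liver in 16.

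Of the genes of other or mixed source, Cd55 and Cd59a encode membrane proteins that protect the body's own cells. Cd55 was at 9.05, 10.9 and 9.40 CPM in WT livers and at 34.4, 7.10 and 12.4 CPM in CgA-KO livers, so 1 library, CgA-KO replicate 1, stood above all others (log2 fold change 0.87, edgeR adjusted p = 0.278), and without that library the log2 fold change was 0.03. Cd59a was at 75.5 ± 22.5 CPM in WT against 54.3 ± 6.91 CPM in CgA-KO livers, with overlap. Cfd, which encodes factor D and is made mainly by adipocytes in mice, did not pass the filter, with 19, 10 and 11 counts in WT and 3, 8 and 3 in CgA-KO libraries. In CPM these were 1.70, 0.425 and 0.466 against 0.139, 0.254 and 0.134, so the genotypes did not overlap, but the CgA-KO values lay near the level of 3 counts. Of 4 adipocyte markers, Lep was at 0 in all libraries, Adipoq had at most 1 count in a library and Plin1 at most 7. Fabp4 had 243, 222 and 130 counts in WT and 336, 316 and 410 counts in CgA-KO libraries. It overlapped between the genotypes in CPM and was not called. The sums of the 4 markers came almost wholly from Fabp4. They ran from 5.80 to 22.1 CPM in WT and from 10.1 to 18.5 CPM in CgA-KO livers.

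Of 29 further genes of the pathway, 28 were in the table and 22 passed the filter. The median log2 fold change of these 22 was 0.02. Among them the genotypes did not overlap in 9 genes in the higher direction and in 4 in the lower one, beside 19.0% and 14.6% of all genes tested. A total of 6 rose and 1 fell in CgA-KO livers by edgeR's quasi-likelihood test, beside 8.60% called higher and 3.84% called lower among all genes tested. The receptors for C3 fragments on myeloid cells were all among those that rose. Vsig4, the Kupffer cell receptor for C3b and one of the Kupffer cell markers counted above, was at 24.5, 16.0 and 8.68 CPM in WT livers and at 138, 148 and 211 CPM in CgA-KO livers (10.2-fold, edgeR adjusted p = 0.00322). Itgb2, the shared β chain of complement receptors 3 and 4, was at 10.7, 4.13 and 3.56 CPM in WT livers and at 38.3, 70.1 and 36.0 CPM in CgA-KO livers (8.13-fold, edgeR adjusted p = 0.00622). Its partner Itgam was at 3.05, 1.36 and 1.48 CPM in WT livers against 8.26, 12.2 and 11.7 CPM in CgA-KO livers (5.64-fold, edgeR adjusted p = 0.00581). Itgax, the other partner, was at 2.78, 1.19 and 1.36 CPM against 4.596, 7.17 and 9.64 CPM (4.14-fold, edgeR adjusted p = 0.0174). No CgA-KO liver overlapped a WT liver for these integrins, and WT replicate 1 was the highest WT liver for each. Itgb2 lost the call without WT replicate 2 (adjusted p = 0.0558), and Itgax lost it without WT replicate 2 or 3 and without CgA-KO replicate 2 or 3. Itgam kept it in all 6 such fits.

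The collectins Colec10 and Colec11, soluble lectins that also carry the MASP proteases, rose about 2-fold. Colec10 was at 18.4, 21.1 and 18.4 CPM in WT livers and at 53.1, 28.9 and 38.9 CPM in CgA-KO livers (2.08-fold, edgeR adjusted p = 0.0212), and Colec11 at 20.4, 25.2 and 18.9 CPM against 37.6, 56.1 and 34.1 CPM (1.98-fold, adjusted p = 0.0257). Colec10 lost the call without WT replicate 2, WT replicate 3 or CgA-KO replicate 1, and Colec11 without WT replicate 3. Colec11 is also one of the stellate cell markers counted above.

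C4a was the one gene of the pathway that fell. It is known as the gene of sex-limited protein and is a close paralog of C4b, but GENCODE annotates it as a processed transcript and not as protein-coding. C4a lies beside C4b on chromosome 17, C4a from 34809092 to 34823464 and C4b from 34728380 to 34743882. C4a was at 428, 133 and 500.1 CPM in WT replicates 1, 2 and 3 and at 62.6, 44.6 and 64.5 CPM in CgA-KO livers, which edgeR called (log2 fold change -2.63, 95% interval -3.66 to -1.60, adjusted p = 0.0104). Every CgA-KO liver lay below every WT liver, and without CgA-KO replicate 2 the call was just lost (adjusted p = 0.0508). C4a took 30.0%, 11.2% and 33.5% of the counts of both C4 genes in WT livers and 5.75%, 3.51% and 5.87% in CgA-KO livers. Added together, both C4 genes were at 1428, 1186 and 1495 CPM in WT and at 1089, 1271 and 1098 CPM in CgA-KO livers, with overlap. Of the stretches of 31 bases in the longest C4a transcript, 48.9% also occur in C4b, so reads could have been divided between the paralogs and both values are uncertain. The same share was 56.9% for C1ra with C1rb and 36.5% for C1s1 with C1s2. C1rb and C1s2 had at most 2 counts in any library.

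**Figure D5:**
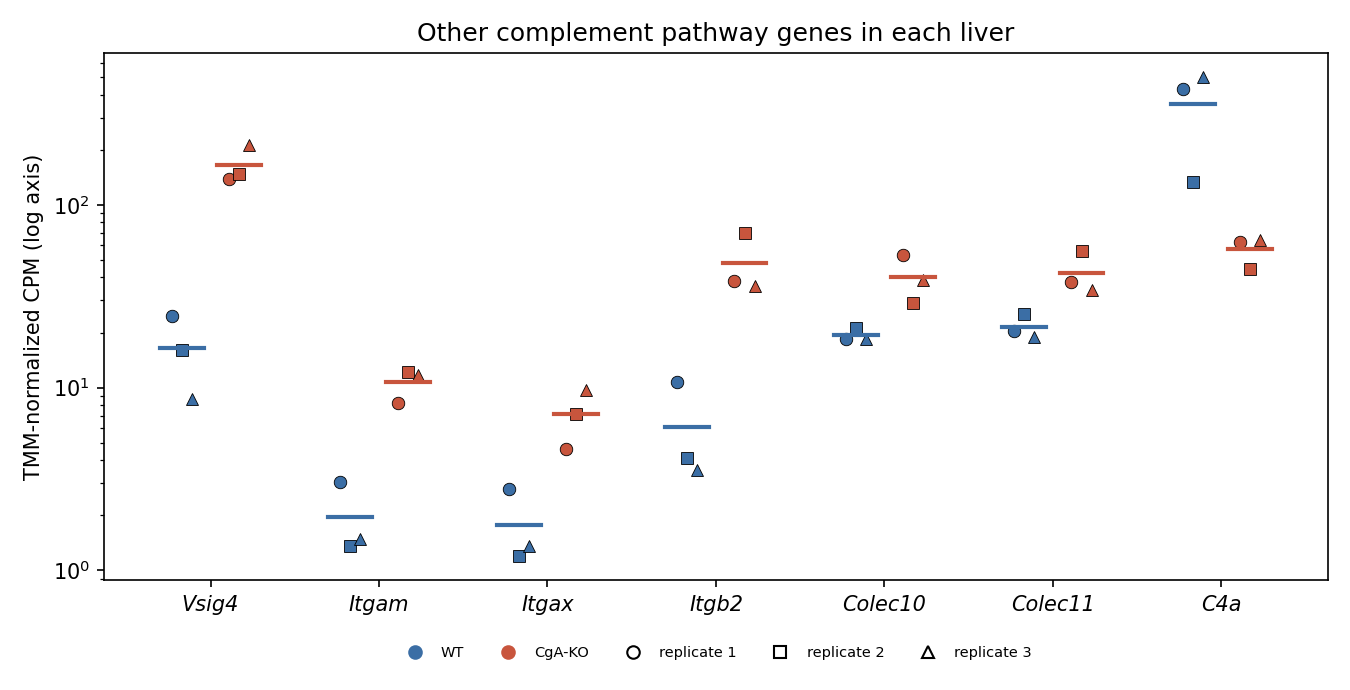
TMM-normalized CPM (log axis) of 7 further genes of the complement pathway in each of 3 WT and 3 CgA-KO livers; symbols mark the replicate and bars the mean. Vsig4, Itgam, Itgax, Itgb2, Colec10 and Colec11 lie higher and C4a lies lower in every CgA-KO liver than in every WT liver.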

How the data were processed

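Liver mRNA libraries came from 6 mice, 3 of each genotype. The authors assigned reads to transcripts of GRCm38 with Salmon 1.4.0, as their methods and processing notes state. The deposited table gives raw whole-number counts by gene symbol. The step from transcripts to genes is not given in the sources used here. All 6 columns were mapped to samples by name, and 0 were left out.

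The main test was run in edgeR 4.0.16 (R 4.3.3): filterByExpr with a minimum count of 10, TMM factors, robust quasi-likelihood fits and a two-sided test of genotype, with Benjamini-Hochberg adjustment over 13867 genes and calls at 0.05. The approximate standard error behind each 95% interval was the log2 fold change divided by the root of F. Alternatives were DESeq2 1.42.0, voom of limma 3.58.1, other scalings and filters, a replicate block, a threshold of 0.01 and fits without 1 library. The procedure was tested on simulated data in which few genes changed, with increases and decreases equally likely. That simulation did not test the scaling for data such as these, where most calls were increases. Levels per kb used the merged exon length of GENCODE M21. Figures were drawn with matplotlib 3.10.9.

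Values in each liver and an adjusted p were given for the macrophage genes, every called gene of the pathway, C3, C4b, Hc and C9. The same was given for C1s1, Masp2, C8a, C8g and Cd55, which were added after their values were seen. Intervals were printed for a part of all these genes, and C1s1 was given without a fold change. The remaining genes were summarised. Of the 8 hepatocyte markers set, 7 matched a symbol, and 1 of the further pathway genes did not. A further pathway gene is not reported here. The 32 genes and all lists were chosen with earlier results of these data known. Reads were not analysed here, and floors and counts cover counting error only.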

Additional observations from a re-analysis of the deposited data

How the results depend on the processing

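The number of complement genes called higher in CgA-KO stayed between 6 and 8 in all alternatives, and all 7 macrophage genes kept their direction. It was 6 with at least 10 counts in every library, where C5ar1 was not tested. The number called lower was 0 except for 3 with DESeq2 and 1 without WT replicate 1, and ran from 0 to 1 with each library left out. For all genes, 1726 were called, against 2592 with DESeq2, 360 at a threshold of 0.01 and 394 (without WT replicate 3) to 2126 (without WT replicate 1) with libraries left out. For the further pathway genes, 7 were called, against 3 at 0.01 and 4 to 7 with libraries left out, the 4 without WT replicate 2 or WT replicate 3. With library size alone 86.6% of calls were higher, against 69.1% with TMM, and C3 became the eighth gene called higher. C9 turned to -0.043 without WT replicate 1 and without CgA-KO replicate 3, in a range of -0.043 to 0.46 with libraries left out. Of the 22 hepatocyte genes, 10 changed sign in at least 1 alternative and 4 were called in at least 1. The log2 ratio of C1q to Kupffer cell markers turned from -0.07 to 0.13 without WT replicate 2, to 0.17 without CgA-KO replicate 1 (-0.28 to 0.17 with libraries left out) and to 0.38 with the markers as a mean of log2 CPM, a summary chosen after seeing the data. That of Fcna stayed between -1.96 and -1.20. The cause was not tested in any of these.

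Replicate numbers are shared by the genotypes, but the labels do not say that they pair the samples. The deviations of same-numbered livers correlated at 0.24, 0.01 and -0.09, and those of differently numbered livers at -0.29 to 0.27. So few livers cannot decide whether the numbers pair the samples. With a replicate block, 1498 genes and the same 7 complement genes were called. WT replicate 1, at 10558616 counts, limits the low genes most, C5ar1 resting on 8 counts there.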

Other observations

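Single CgA-KO livers stood out for a few complement genes, which were picked out after their values were seen. Fcnb, which encodes ficolin B of neutrophil precursors, had 0 counts in all WT libraries and 0, 81 and 2 counts in CgA-KO replicates 1, 2 and 3. Mpo and Ngp, granule genes of the same cells, were also highest in CgA-KO replicate 2, with 2107 and 2903 counts. Cr2, the complement receptor of B cells and follicular dendritic cells, had 3, 5 and 3 counts in WT and 56, 2 and 2 counts in CgA-KO libraries, so its high library was CgA-KO replicate 1, the one that was also high in Cd55. Neither Fcnb nor Cr2 passed the filter, and no difference between genotypes was tested for them.

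C7, a terminal component that other cells than hepatocytes make, was near the lower limit of detection. It had 7, 6 and 11 counts in WT and 18, 72 and 24 counts in CgA-KO libraries, with no overlap in CPM, a log2 fold change of 1.70 and no call (edgeR adjusted p = 0.0872). Cd59b, the paralog of Cd59a, was at 3.15 ± 0.377 CPM in WT against 1.42 ± 0.341 CPM in CgA-KO livers, lower in 3 of 3 CgA-KO livers than in any WT liver and not called (edgeR adjusted p = 0.0622), but called in 2 of 13 alternatives (adjusted p from 0.0285 to 0.221 over them).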
